A study of Rattus norvegicus with 12 samples.

Results

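The genes described here encode the liver enzymes that join a drug or a body compound to a larger, water-soluble group: the UDP-glucuronosyltransferases of family 2 (UGT2), the glutathione S-transferases (GST), the microsomal glutathione transferases (MGST) and the sulfotransferases (SULT). They were chosen by gene symbol alone, as the probe sets annotated with exactly 1 symbol beginning with Ugt1, Ugt2, Gsta, Gstm, Gstp, Gstt, Gstk, Gsto, Gstz, Mgst or Sult. This gave 30 genes, each with 1 probe set, of 13215 genes and 19418 probe sets in all: 5 UGT2, 1 alpha class GST, 7 mu class GST, 7 GST of the pi, theta, kappa and omega classes, 2 MGST and 8 SULT genes. A further 12 probe sets of these families list several gene entries each and were left out. The 1 probe set of the UGT1 family was among them, so that UGT1 has no gene here.

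RNA came from the livers of 12 Sprague Dawley rats, 4 per group, on Affymetrix whole-transcript arrays with 1 array per rat; the sample titles call the 4 of a group biological replicates. All rats were kept singly with free access to food and water and ate their diet for 7 days. The naproxen group had naproxen in the diet at 400 mg/kg, the NO-naproxen group had NO-naproxen at 550 mg/kg, and the control group had the diet without drug. Naproxen is a nonsteroidal anti-inflammatory drug that inhibits the cyclooxygenases, and NO-naproxen is its nitric oxide-releasing derivative. The question named in the series design was how each drug diet differs from the control diet.

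UGTs transfer glucuronic acid from UDP-glucuronic acid, and carboxylic acid drugs such as naproxen are cleared in part as acyl glucuronides. GSTs couple glutathione to electrophiles, MGSTs do so in membranes, and SULTs transfer sulfate from the donor PAPS to phenols, alcohols and steroids. In the liver these genes are known targets of the sensors CAR (Nr1i3), PXR (Nr1i2), AhR (Ahr), PPAR alpha (Ppara) and Nrf2 (Nfe2l2).

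The promoters of 5 genes are printed as a description of sequence: 3 GST genes and the pair of genes whose promoters shared the longest stretch. Whether these sequences have a part in the results was not tested. RefSeq promoters (assembly GRCr8) were found for 25 of the 30 genes, and the 250 bases before each start were searched on both strands for TGACNNNGC, the core of the antioxidant response element, GCGTG, the core of the xenobiotic response element, and AGGTCA, a binding core of nuclear receptors. In the first 3 sequences the capitals mark every match, read on the gene's strand. Gsta6 lies on the minus strand at chr9:31275352-31275601, Gstp1 on the minus strand at chr1:210769706-210769955 and Gstp3 on the minus strand at chr1:210787685-210787934. For Ugt2b (plus strand, chr14:20985349-20985448) and Ugt2b35 (plus strand, chr14:21208341-21208440) only the last 100 bases are printed, and the capitals mark the longest stretch that both share.
Gsta6: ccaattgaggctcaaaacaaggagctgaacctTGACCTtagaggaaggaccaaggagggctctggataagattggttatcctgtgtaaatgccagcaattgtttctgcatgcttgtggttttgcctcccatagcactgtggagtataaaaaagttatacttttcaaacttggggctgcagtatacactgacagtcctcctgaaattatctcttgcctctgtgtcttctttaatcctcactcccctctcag
Gstp1: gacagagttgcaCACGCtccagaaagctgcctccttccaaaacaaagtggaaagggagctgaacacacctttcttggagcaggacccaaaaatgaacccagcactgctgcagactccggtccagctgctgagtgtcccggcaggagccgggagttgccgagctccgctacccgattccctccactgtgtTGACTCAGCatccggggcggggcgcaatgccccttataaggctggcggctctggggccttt
Gstp3: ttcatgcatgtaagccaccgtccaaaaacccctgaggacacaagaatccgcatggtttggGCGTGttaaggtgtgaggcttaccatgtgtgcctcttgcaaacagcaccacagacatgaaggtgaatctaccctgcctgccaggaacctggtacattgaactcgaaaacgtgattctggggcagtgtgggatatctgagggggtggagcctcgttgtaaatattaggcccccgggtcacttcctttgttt
Ugt2b: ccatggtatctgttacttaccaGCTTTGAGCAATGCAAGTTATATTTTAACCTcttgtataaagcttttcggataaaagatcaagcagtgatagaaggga
Ugt2b35: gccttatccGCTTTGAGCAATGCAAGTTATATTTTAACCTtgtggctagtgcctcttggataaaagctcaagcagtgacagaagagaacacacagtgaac

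Gstp1 held TGACTCAGC 61 to 53 bases before its start and CACGC, the reverse complement of GCGTG, 238 to 234 bases before it. Gstp3, on the same strand nearby, held 1 GCGTG and no TGACNNNGC in this window, and Gsta6 held 1 TGACCT, the reverse complement of AGGTCA. Over the 25 promoters, TGACNNNGC was found in 3 (Gstm5, Gstm7 and Gstp1), GCGTG in 5 (Gstm4, Gstm5, Gstp1, Gstp3 and Sult2b1) and AGGTCA in 2 (Gsta6 and Gstm1). Of 27457 rat promoters of the same length, 10.2% held TGACNNNGC, 27.2% GCGTG and 13.7% AGGTCA. In Gstm5 a match to GCGTG lay inside a match to TGACNNNGC. Ugt2b and Ugt2b35 shared a stretch of 31 bases, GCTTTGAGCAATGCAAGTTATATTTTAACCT, which lies 78 to 48 bases before the start of Ugt2b and 91 to 61 before that of Ugt2b35. Ugt2b7 shared 25 of these bases with both, and the median longest shared stretch over all 300 pairs of the 25 promoters was 8 bases. A match of letters is a description of the sequence and not a measured binding site.

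The arrays differed in overall spread, whose part in the results was not tested as a cause. The interquartile range over all probe sets lay between 1.94 and 2.37 log2 units in controls, 2.20 and 2.53 with naproxen and 2.07 and 2.62 with NO-naproxen, and control replicates 3 and 4 were the narrowest of the 12. Hepatocyte markers (6 of 8 measured) had a summed level of 15.63 to 15.81 in controls, 15.59 to 15.75 with naproxen and 15.62 to 15.88 with NO-naproxen. In mean, 3 of 6 were above control with naproxen and 4 of 6 with NO-naproxen. Tat differed from control by -0.42 log2 units with naproxen and -0.04 with NO-naproxen, and Alb, serum albumin, measured 13.62 ± 0.05 in controls. Kupffer cell markers (7 of 8 measured) summed to 11.6 to 12.1, 11.8 to 12.3 and 11.9 to 12.5 in the same order, with 7 of 7 and 6 of 7 markers above control in mean. Stellate cell markers (6 of 7 measured) summed to 10.8 to 11.5, 11.2 to 11.7 and 11.1 to 11.7, with 6 of 6 and 5 of 6 above control in mean. The endothelial markers (2 of 7 measured) summed to 9.36 to 9.82 in controls and 9.97 to 10.06 with naproxen, which did not overlap, and to 9.63 to 10.00 with NO-naproxen. On each diet 2 of 2 were above control in mean. The cholangiocyte markers (4 of 8 measured) summed to 7.77 to 8.07, 7.78 to 8.11 and 7.76 to 7.96, with 1 of 4 and 2 of 4 above control in mean. Of these, Epcam, Cftr and Muc1 were no brighter than olfactory receptor probe sets. The single erythroid marker measured of 6 came to 8.16 to 8.60, 8.26 to 8.84 and 7.13 to 8.51. Single markers that did not overlap with control were Rgs5 (stellate) and Oit3 (endothelial) on both drug diets and Epcam with naproxen, all higher. Of all probe sets, 4.5% did not overlap between naproxen and control and 3.35% between NO-naproxen and control. The part of these marker levels in the results was not tested, and in RNA of whole liver fewer cells of a type and less RNA per cell cannot be told apart.

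Across the 30 genes no difference between diets passed the test. The fit was made with limma on log2(intensity + 16) over all 19418 probe sets, and a probe set counted as called at a Benjamini-Hochberg adjusted p under 0.05. None of the 30 genes was called for naproxen against control, for NO-naproxen against control or between the drugs, and neither was any of the 19418 probe sets (0%). The smallest adjusted p of the 30 was 0.381 for naproxen, 0.468 for NO-naproxen and 1 between the drugs. The values below are therefore differences between means with their errors, and both drug groups are set against the same 4 control rats.

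At an unadjusted limma p under 0.05, 3 of the 30 genes differed with naproxen: Gsta6 and Gstp1 were higher and Gstm3 lower. Among all probe sets 12.7% did so, 3.16% higher and 9.5% lower, so the share of these genes (10%) lay near that of the array. With NO-naproxen 3 genes also had such a p, Gsta6, Gstp3 and Ugt2b, all higher, against 10.4% of all probe sets (5.49% higher and 4.86% lower). With each array's interquartile range as a covariate, 5.63% of all probe sets had such a p with naproxen and 3.53% with NO-naproxen (3 and 1 of the 30 genes). Without control replicates 3 and 4 the shares were 2.39% and 1.93% (1 and 0 of the 30 genes). The series design's own criterion, an unadjusted p under 0.05 with a change of at least 1.5-fold, took 1 gene per drug: Gstm3, lower with naproxen (5.85% of all probe sets, 4.97% lower), and Ugt2b, higher with NO-naproxen (3.8% of all, 1.78% higher). The 4 naproxen and 4 control arrays did not overlap for 2 genes, Gsta6 and Ugt2b35, both higher (4.5% of all probe sets, 2.09% higher). With NO-naproxen every one of the 30 genes overlapped with control (3.35% of all probe sets did not).

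The log2 difference from control was above 0 in 20 of 30 genes with naproxen (45.9% of all probe sets) and in 19 of 30 with NO-naproxen (50.1% of all). The median log2 difference of the 30 genes was 0.09 with each drug, against -0.03 and 0.00 for all probe sets, and with array weights the NO-naproxen median was -0.00071. Dim probe sets make up more of the array than of these genes. Without the dimmest 30% of probe sets, the median of the genes left was 0.09 with each drug. That of all probe sets left was then 0.03 with naproxen and 0.07 with NO-naproxen. Of the 30 genes, 24 had a mean level above 6.44 log2 units, the 95th percentile of 970 olfactory and vomeronasal receptor probe sets that liver is not known to use. The other 6, Gstm3, Gstm5, Gsto2, Sult6b1, Ugt2a1 and Ugt2b, were within that olfactory receptor range, as were 38.0% of all probe sets, and the added 16 understates their changes. The median of these 6 was -0.20 with naproxen (2 of 6 above 0) and -0.11 with NO-naproxen (3 of 6), and that of the other 24 was 0.10 (18 of 24) and 0.11 (16 of 24).

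**Figure D1:**
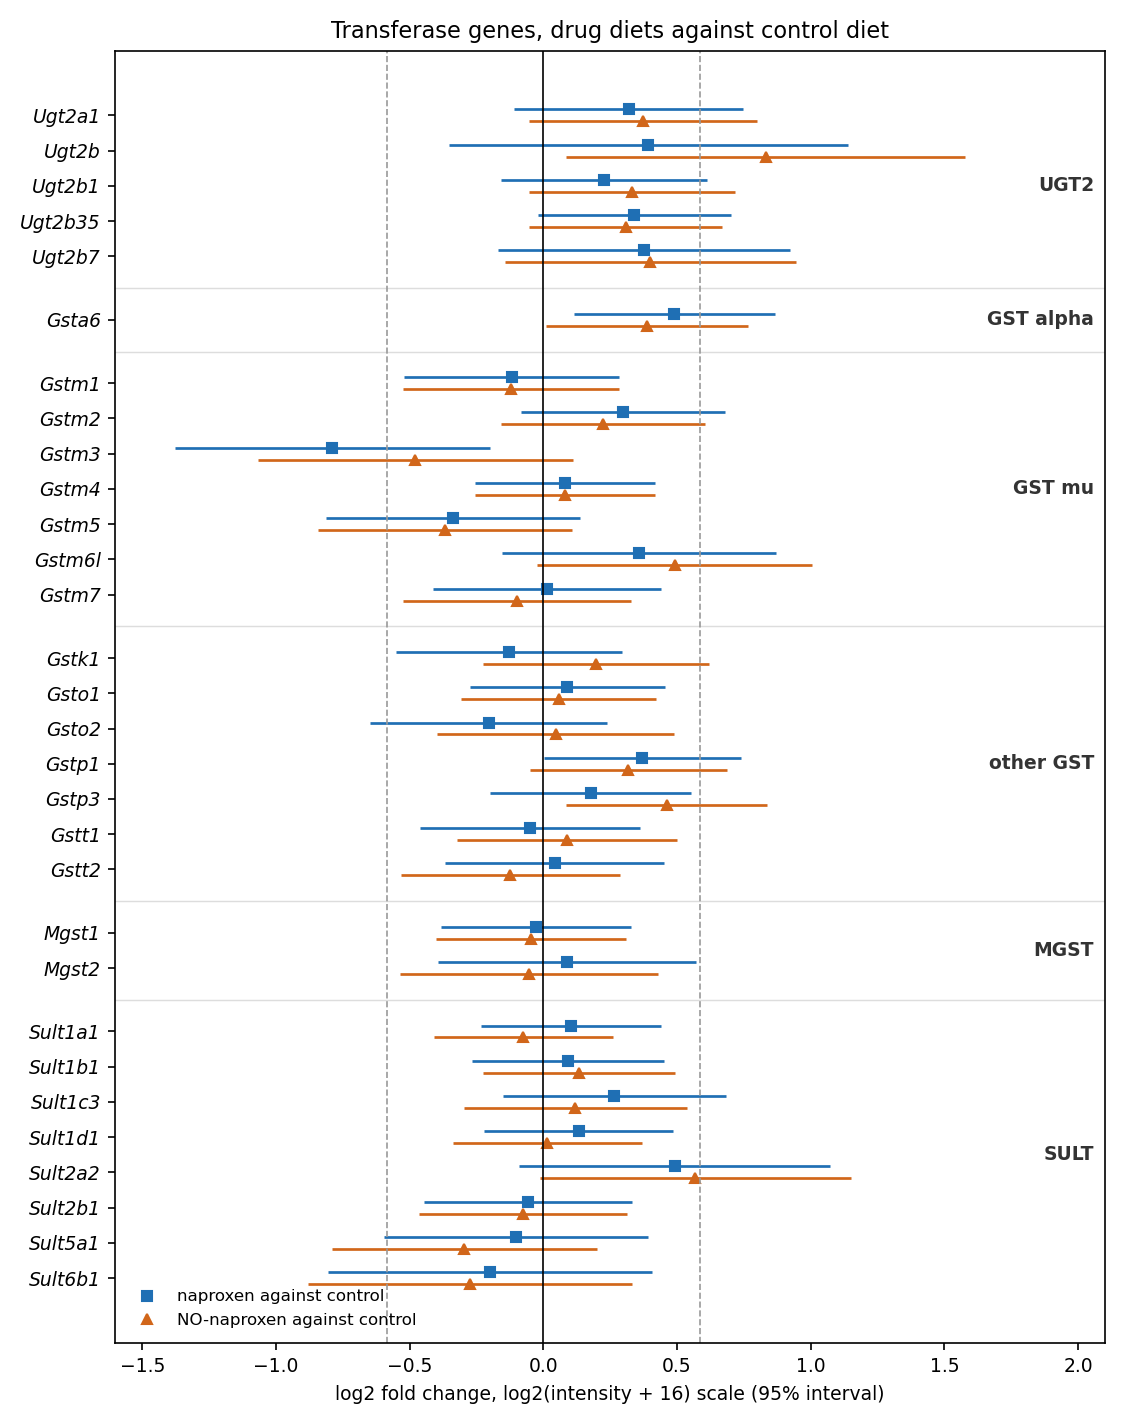
Log2 difference from control (x axis, log2(intensity + 16) scale) of each of the 30 genes, by enzyme class, with naproxen (squares) and NO-naproxen (triangles). Bars are 95% intervals from limma with 4 rats per group, dashed lines mark a 1.5-fold change, and all 5 UGT2 genes lie right of 0 for both drugs while the mu class GST genes lie on both sides.

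The UGT2 genes, whose products conjugate steroids, bile acids and many drugs with glucuronic acid, lay above control in mean with both drugs. Single arrays overlapped with control for each of them, except for Ugt2b35 with naproxen. All 5 had a higher mean with naproxen, by 0.23 to 0.39 log2 units (median 0.34), and with NO-naproxen, by 0.31 to 0.83 (median 0.37). At an unadjusted p under 0.05, 0 of the 5 differed with naproxen and 1, Ugt2b, with NO-naproxen. All 5 also stayed above 0 for both drugs with quantile normalization, with each array's spread added to the fit and without control replicates 3 and 4. Over 24 alternatives the class median lay between 0.21 and 0.49 with naproxen and between 0.30 and 0.53 with NO-naproxen. Some of these alternatives, such as leaving out an array of the diet not compared, cannot change it.

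Taken per array, the median deviation of the 5 UGT2 genes from their control means was 0.37, 0.48, 0.13 and 0.53 in naproxen replicates 1 to 4. It was 0.75, 0.64, 0.21 and 0.27 in NO-naproxen replicates 1 to 4. In controls it was -0.01, 0.07, -0.15 and 0.15. All 4 NO-naproxen arrays and 3 of 4 naproxen arrays lay above the highest control, and naproxen replicate 3 lay inside the control range. No share of all probe sets was computed for such a class median. Taken singly, each of the 5 genes overlapped between NO-naproxen and control. The control means of Ugt2a1, Ugt2b and Ugt2b7 lay below 6.44, the upper bound of the olfactory receptor range. The group means were 0.02 ± 0.13 for the control diet, 0.38 ± 0.18 for naproxen and 0.47 ± 0.27 for NO-naproxen (SD, n = 4).

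Ugt2b35 measured 10.41, 10.55, 10.32 and 10.57 log2 units in control replicates 1 to 4. It measured 10.64, 10.94, 10.59 and 11.04 with naproxen, and 10.46, 10.95, 10.93 and 10.74 with NO-naproxen. Every naproxen array was above every control array, while NO-naproxen replicate 1 lay within the controls. The difference was 0.34 ± 0.17 (SE; 95% interval -0.02 to 0.70; adjusted p = 0.406) with naproxen and 0.31 ± 0.17 (adjusted p = 0.469) with NO-naproxen. Ugt2b1 measured 11.32, 10.96, 11.15 and 11.35 in controls, 11.57, 11.25, 11.16 and 11.72 with naproxen and 11.31, 11.84, 11.44 and 11.52 with NO-naproxen. Its arrays overlapped between all groups, and the differences were 0.23 ± 0.18 and 0.33 ± 0.18 (adjusted p = 0.567 and adjusted p = 0.468).

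Ugt2b, which carries the stretch printed above, was within the olfactory receptor range on average and varied most. It measured 5.57, 4.87, 4.94 and 5.55 in controls and 5.43, 5.85, 5.78 and 5.45 with naproxen. With NO-naproxen it measured 6.89 and 6.88 in replicates 1 and 2 but 5.42 and 5.07 in replicates 3 and 4. The NO-naproxen group was thus split, with a pair of rats above all other arrays and a pair inside the control range. The mean difference was 0.83 ± 0.35 (1.78-fold, 95% interval 0.09 to 1.58, adjusted p = 0.468), and 0.39 ± 0.35 with naproxen. With 64 in place of 16 added before log2 the NO-naproxen difference was 0.47, and with 1 added 1.14. It was 0.56 without NO-naproxen replicate 1, 0.56 without replicate 2, 0.71 without control replicate 2 and 0.73 without control replicate 3, and without any one of these 4 arrays it no longer met the series criterion.

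The remaining UGT2 genes shared part of that split. Ugt2a1, best known from the olfactory epithelium, measured 6.02, 5.87, 5.14 and 5.54 in NO-naproxen replicates 1 to 4 and 5.08 to 5.42 in controls. Ugt2b7 measured 7.26, 6.93, 6.48 and 6.0 in the same NO-naproxen replicates and 6.13 to 6.53 in controls. In both, as in Ugt2b, replicates 1 and 2 were the highest of their group. The control mean of Ugt2b7, 6.27, lay below 6.44, the upper bound of the olfactory receptor range. With the array spread added as a covariate the naproxen difference of Ugt2a1 moved from 0.32 to 0.08 and its NO-naproxen difference from 0.37 to 0.12, and those of Ugt2b from 0.39 to 0.13 and from 0.83 to 0.55. Those of Ugt2b7 moved from 0.38 to 0.21 and from 0.40 to 0.22, while Ugt2b35 moved from 0.34 to 0.40 and from 0.31 to 0.38 and Ugt2b1 kept 0.23 and 0.33.

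**Figure D2:**
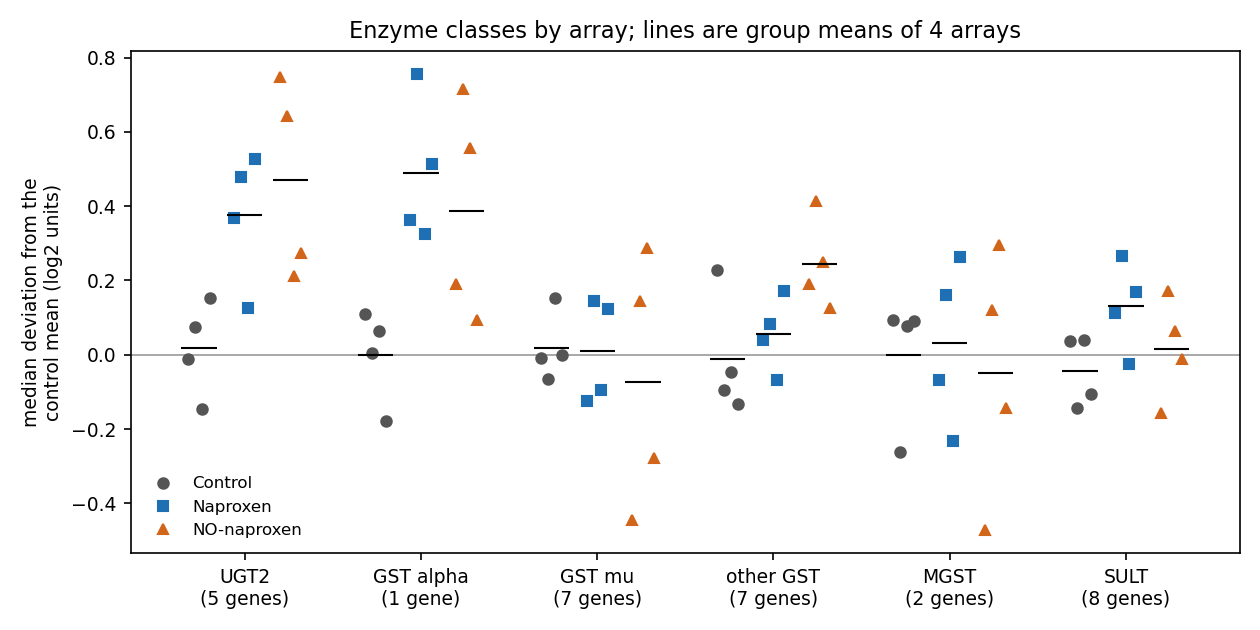
Median deviation of each enzyme class from its control means (y axis, log2 units), 1 point per array, for control (circles), naproxen (squares) and NO-naproxen (triangles), with short lines at the group means of 4 arrays. The 4 NO-naproxen arrays of UGT2 lie between 0.21 and 0.75, above all controls, although each UGT2 gene taken singly overlaps between these groups. MGST in NO-naproxen runs from -0.47 to 0.30.

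Gsta6, the single alpha class GST measured on a probe set of its own, was 1 of the 2 genes whose naproxen and control arrays did not overlap. The alpha class forms a large part of liver GST protein and acts on lipid peroxides as well as on electrophiles. Gsta6 measured 7.95, 7.84, 7.90 and 7.66 in controls, 8.20, 8.60, 8.16 and 8.35 with naproxen, and 8.03, 8.55, 8.39 and 7.93 with NO-naproxen. All naproxen arrays lay above all controls, and of the NO-naproxen arrays only replicate 4 reached down into the control range. The difference was 0.49 ± 0.18 with naproxen (1.40-fold, 95% interval 0.11 to 0.87, adjusted p = 0.381) and 0.39 ± 0.18 with NO-naproxen (1.31-fold, 95% interval 0.01 to 0.76, adjusted p = 0.468). With the array spread as a covariate it was 0.49 and 0.39 again. The unadjusted p for naproxen stayed under 0.05 in 22 of 24 alternatives; the exceptions left out naproxen replicate 2 (0.40) or control replicates 3 and 4 (0.43). For NO-naproxen it did so in 12 of 24.

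The mu class GST genes, a cluster of close relatives that conjugate epoxides and aromatic electrophiles, had no common direction. With naproxen 4 of 7 means were above control and with NO-naproxen 3 of 7. Their median was 0.01 with naproxen, and -0.07 after quantile normalization. With NO-naproxen it was -0.10, and 0.05 with the array spread as a covariate. Gstm1 differed by -0.12 ± 0.19 on each drug, Gstm2 by 0.30 ± 0.18 and 0.22 ± 0.18, Gstm4 by 0.08 ± 0.16 on each and Gstm7 by 0.01 ± 0.20 and -0.10 ± 0.20. For Gstm4 the 95% interval was -0.25 to 0.42 with both drugs, the narrowest of the 30 genes.

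Gstm3, within the olfactory receptor range, was the gene with the lowest p of the 30. It measured 5.78, 5.75, 6.23 and 5.31 in controls, 4.36, 4.62, 5.48 and 5.45 with naproxen, and 4.77, 5.65, 5.49 and 5.24 with NO-naproxen. Naproxen replicates 1 and 2 were below all controls, and replicates 3 and 4 lay inside the control range. The naproxen mean was lower by 0.79 ± 0.28 log2 units (1.73-fold lower, 95% interval -1.38 to -0.20, adjusted p = 0.381). Its size depended on the constant added before log2: -1.42 with 1 added and -0.35 with 64. Without naproxen replicate 1 the difference was -0.58 and no longer met the series criterion. With NO-naproxen the difference was -0.48 ± 0.28 (adjusted p = 0.478). Gstm5, also within that range, differed by -0.34 ± 0.22 and -0.37 ± 0.22, and Gstm6l, above it, by 0.36 ± 0.24 and 0.49 ± 0.24.

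Among the other GSTs, the pi class genes Gstp1 and Gstp3 lie close together on chromosome 1. Gstp1 is known in rat liver as the form that marks early neoplastic foci and is low in normal hepatocytes. It measured 6.46, 6.75, 6.21 and 6.17 in controls, 7.05, 6.80, 6.62 and 6.60 with naproxen, and 6.59, 6.81, 6.78 and 6.68 with NO-naproxen. Control replicate 2 sat among the drug arrays and the other 3 controls below all of them. The control mean of Gstp1, 6.40, lay below 6.44, the upper bound of the olfactory receptor range. The difference was 0.37 ± 0.17 with naproxen (1.29-fold, adjusted p = 0.393) and 0.32 ± 0.17 with NO-naproxen (adjusted p = 0.468). Without control replicates 3 and 4 these were 0.16 and 0.11. The unadjusted p for naproxen was under 0.05 in 10 of 24 alternatives.

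Gstp3, also of the pi class, had a higher mean with NO-naproxen. It measured 11.32, 10.89, 10.92 and 10.73 in controls, 11.52, 11.05, 10.96 and 11.04 with naproxen, and 11.26, 11.50, 11.49 and 11.45 with NO-naproxen. Replicates 2 to 4 of NO-naproxen were above all controls, while replicate 1 was just below control replicate 1. The difference was 0.46 ± 0.18 (1.38-fold, 95% interval 0.09 to 0.84, adjusted p = 0.468) with NO-naproxen and 0.18 ± 0.18 (adjusted p = 0.652) with naproxen. The unadjusted p for NO-naproxen was under 0.05 in 20 of 24 alternatives, but not without control replicate 4 (0.39), without control replicates 3 and 4 (0.32), with array weights (0.35) or with the array spread as a covariate (0.39).

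The 5 further genes of this group had no unadjusted p under 0.05. Gstk1, a mitochondrial and peroxisomal form, differed by -0.13 ± 0.20 with naproxen and 0.20 ± 0.20 with NO-naproxen. Gsto1, a thioltransferase that also reduces dehydroascorbate, differed by 0.09 ± 0.17 and 0.06 ± 0.17, and Gsto2, within the olfactory receptor range, by -0.20 ± 0.21 and 0.05 ± 0.21. The theta class genes Gstt1 and Gstt2 differed by -0.05 ± 0.19 and 0.04 ± 0.19 with naproxen and by 0.09 ± 0.19 and -0.12 ± 0.19 with NO-naproxen. The median of the group was 0.04 with naproxen, -0.02 after quantile normalization, and 0.09 with NO-naproxen.

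**Figure D3:**
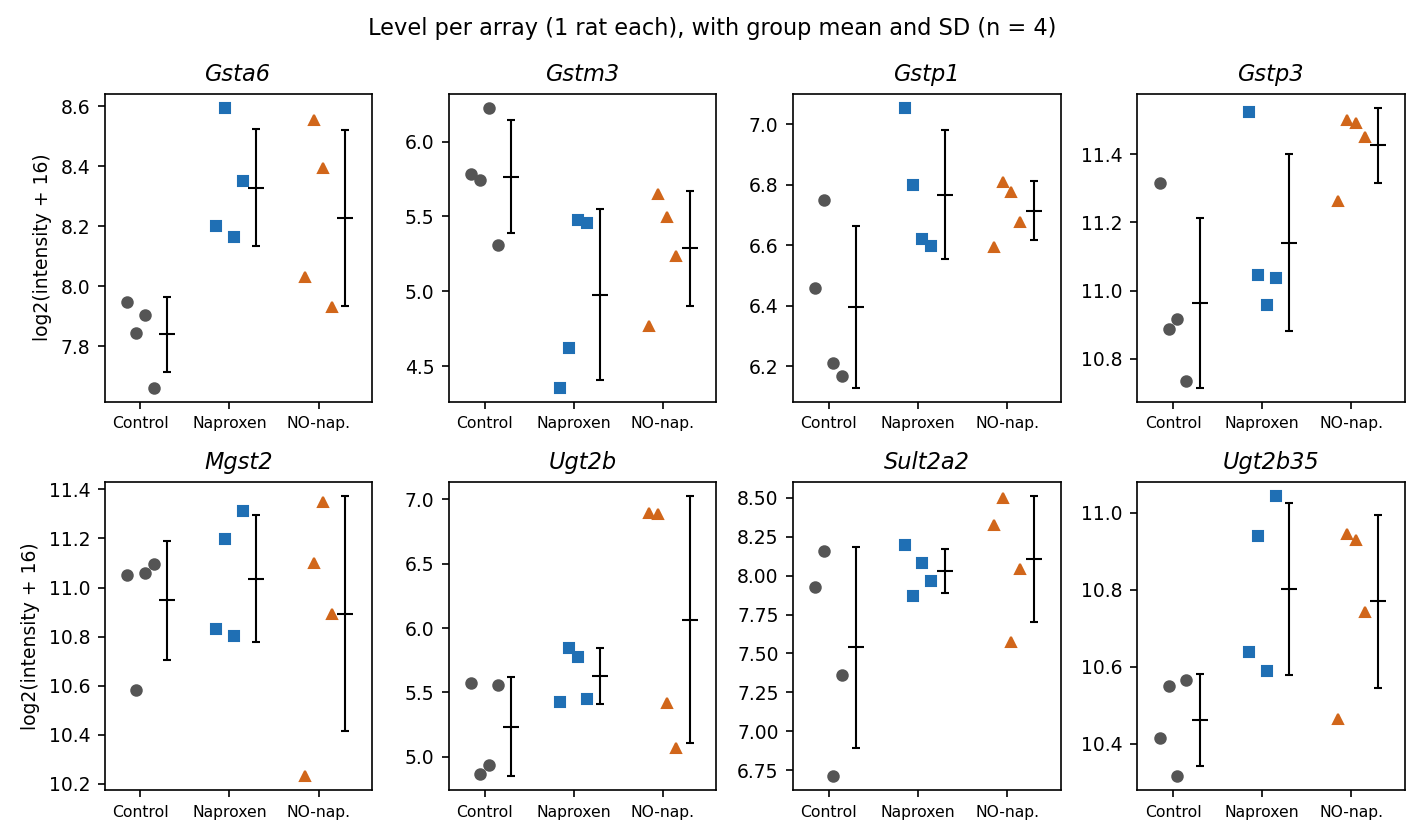
Level in each array (y axis, log2(intensity + 16)) of 8 genes in control (circles), naproxen (squares) and NO-naproxen (triangles), with the mean and SD of each group (n = 4) to the right of its points and a separate y scale per gene. Gsta6 and Ugt2b35 show no overlap between naproxen and control, and Ugt2b in NO-naproxen splits into 6.89 and 6.88 against 5.42 and 5.07.

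The membrane-bound transferases were close to control in mean. Mgst1, which protects the endoplasmic reticulum and outer mitochondrial membrane, differed by -0.03 ± 0.17 with naproxen and -0.05 ± 0.17 with NO-naproxen, with both 95% intervals inside a 1.5-fold change. Mgst2, which can also form leukotriene C4, measured 11.05, 10.58, 11.06 and 11.10 in controls, 10.83, 11.20, 10.80 and 11.31 with naproxen, and 10.23, 11.10, 11.35 and 10.89 with NO-naproxen. Its lowest and its highest array were both in the NO-naproxen group. The differences were 0.09 ± 0.23 and -0.05 ± 0.23, and the second was 0.17 without NO-naproxen replicate 1 and 0.23 with the array spread as a covariate.

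The sulfotransferases also lay on both sides of 0. With naproxen 5 of 8 means were above control (median 0.10) and with NO-naproxen 4 of 8 (median -0.03, and 0.04 after median centring), and 0 of 8 had an unadjusted p under 0.05 with either drug. Sult1a1, the main phenol sulfotransferase, differed by 0.10 ± 0.16 and -0.07 ± 0.16, and Sult1b1, which acts on thyroid hormones, by 0.09 ± 0.17 and 0.13 ± 0.17. Sult1c3 differed by 0.27 ± 0.20 and 0.12 ± 0.20, Sult1d1 by 0.13 ± 0.17 and 0.02 ± 0.17, and Sult2b1, known for cholesterol and oxysterol sulfation, by -0.06 ± 0.18 and -0.08 ± 0.18. Sult5a1 differed by -0.10 ± 0.23 and -0.30 ± 0.23 and Sult6b1, within the olfactory receptor range, by -0.20 ± 0.29 and -0.27 ± 0.29.

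Sult2a2, a hydroxysteroid sulfotransferase, had the smallest p of the class. It measured 7.93, 8.16, 6.71 and 7.36 in controls, 8.20, 7.87, 8.08 and 7.97 with naproxen, and 8.32, 8.50, 7.57 and 8.04 with NO-naproxen. Control replicates 3 and 4 were the lowest of all 12 arrays, and control replicates 1 and 2 lay among the drug arrays. The differences were 0.49 ± 0.27 (adjusted p = 0.438) and 0.57 ± 0.27 (adjusted p = 0.468). Those 2 controls were also the arrays of narrowest spread: without them the differences were -0.01 and 0.07, and with the array spread as a covariate 0.06 and 0.10.

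**Figure D4:**
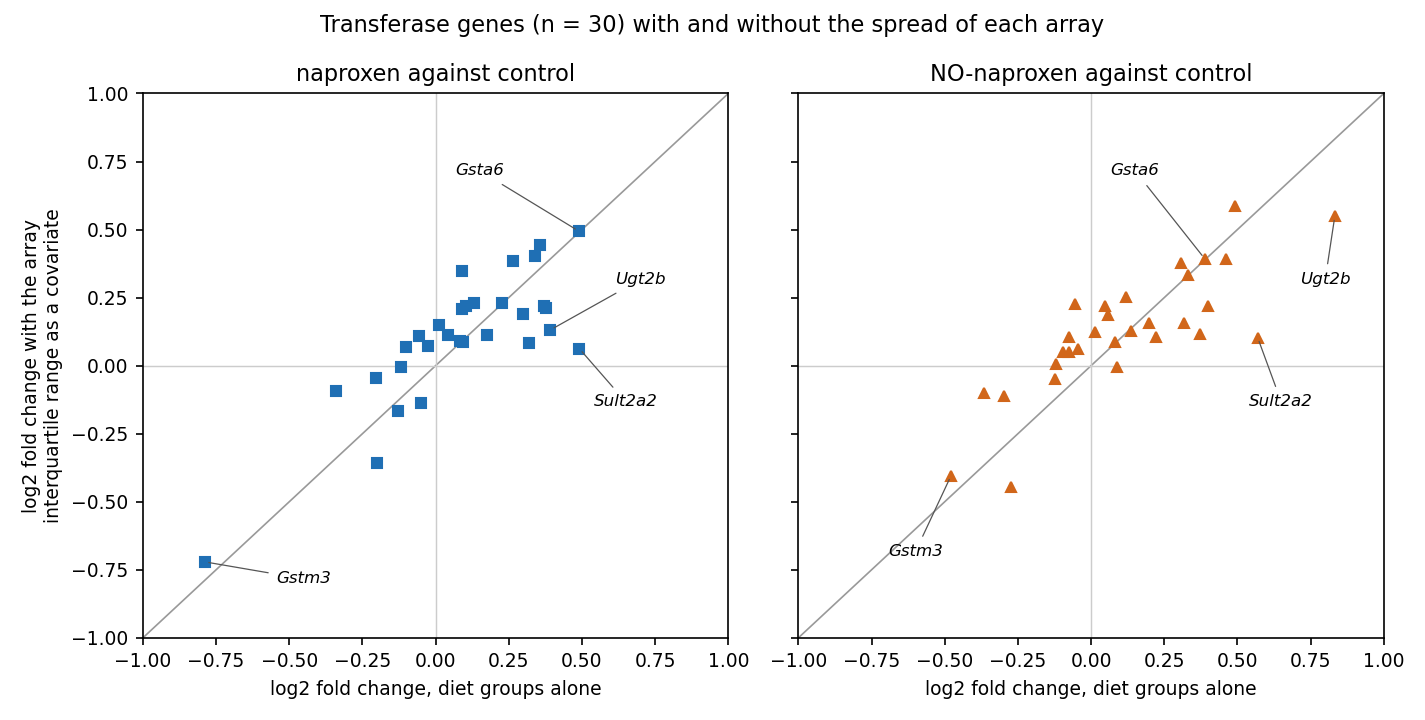
Log2 difference from control of the 30 genes fitted on the diets alone (x axis) and with the interquartile range of each array as a covariate (y axis), for naproxen (squares, left) and NO-naproxen (triangles, right); the diagonal marks equal values. Gsta6 lies on the diagonal, while Sult2a2 lies far below it, at 0.06 and 0.10 against 0.49 and 0.57.

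Within the NO-naproxen group many of these genes ordered the 4 rats alike, a pattern noticed after the values were seen. In 18 of 30 genes replicates 2 and 3 were both above replicates 1 and 4, which held for 19.1% of all probe sets. These 18 were Gsta6, 6 of the 7 mu class genes (all but Gstm5), Gsto1, Gstp1, Gstp3, Gstt2, both MGST genes, Sult1a1, Sult1b1, Sult1c3, Sult1d1 and Ugt2b35. Gstm7 is an example, with 10.05, 10.61, 10.96 and 10.14 in replicates 1 to 4, and Gstm1 another, with 11.57, 12.15, 12.30 and 11.54. Replicate 1 was the lowest of its group in 16 of the 30 genes and in 19.0% of all probe sets. The SDs of Gstm1 were 0.39 with NO-naproxen, 0.15 with naproxen and 0.11 in controls.

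The drugs were given at different amounts in the diet, 400 and 550 mg/kg, so their direct contrast compares these diets and not the molecules at one dose. None of the 30 genes had an unadjusted p under 0.05 between the drugs, against 1.92% of all probe sets, 0 met the series criterion (0.572% of all) and 0 had groups that did not overlap (1.17% of all). The gene with the smallest p was Gstk1, higher with NO-naproxen by 0.33 ± 0.20 (95% interval -0.10 to 0.75). Gstp3 followed with 0.28 ± 0.18 (-0.09 to 0.66), and Ugt2b had the widest interval, 0.44 with -0.31 to 1.19. For 20 of the 30 genes the 95% interval between the drugs lay inside a 1.5-fold change either way, and for 29 inside a 2-fold change. The median difference of the 30 genes, NO-naproxen minus naproxen, was -0.02, against 0.06 for all probe sets, and 12 of 30 were above 0 against 64.1% of all.

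The size of a difference these arrays could show was limited by 4 rats per group. The median SE over the 30 genes was 0.19 log2 units (0.21 for all probe sets), and the 95% interval reached 0.41 to either side in the median gene. Against control, the interval lay inside a 1.5-fold change for 14 of 30 genes with naproxen and for 14 of 30 with NO-naproxen. It lay inside a 2-fold change for 27 of 30 with naproxen, the exceptions being Gstm3, Sult2a2 and Ugt2b, and for 26 of 30 with NO-naproxen, where Gstm6l was the added exception.

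The genes that supply, regulate and follow these enzymes gave 38 measured genes in 5 lists. None was called at an adjusted p under 0.05. At an unadjusted limma p under 0.05, 4 were higher and 0 lower with naproxen. Of all probe sets 12.7% had such a p, 3.16% higher and 9.5% lower. With NO-naproxen 6 were higher and 0 lower, against 10.4% of all probe sets (5.49% higher and 4.86% lower). The median log2 differences of the 38 were 0.04 and 0.16.

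Of these, regulators were 2 of 4 with naproxen and 4 of 6 with NO-naproxen. Nr1i3, the constitutive androstane receptor CAR, was higher by 0.86 ± 0.27 with naproxen (1.82-fold, adjusted p = 0.381), where its arrays did not overlap with control, and by 0.67 ± 0.27 (adjusted p = 0.468) with NO-naproxen. Ahr, the aryl hydrocarbon receptor, differed by 0.61 ± 0.22 and 0.63 ± 0.22 (adjusted p = 0.381 and adjusted p = 0.468). Ppara and its partner Rxra had an unadjusted p under 0.05 with NO-naproxen, at 0.67 ± 0.25 and 0.39 ± 0.19. The naproxen arrays of Hnf4a, a hepatocyte transcription factor, all lay below control (-0.33 ± 0.17, adjusted p = 0.415), and the NO-naproxen arrays of Keap1, which holds Nrf2 inactive, all lay above it (0.31 ± 0.16, adjusted p = 0.468). Nfe2l2, which encodes Nrf2, differed by 0.09 ± 0.19 and -0.07 ± 0.19, and the pregnane X receptor Nr1i2 by 0.29 ± 0.19 and 0.19 ± 0.19. In all, 2 of 11 measured regulators had an unadjusted p under 0.05 with naproxen (12.7% of all probe sets) and 4 of 11 with NO-naproxen (10.4% of all). Of all probe sets, 4.5% did not overlap between naproxen and control and 3.35% between NO-naproxen and control.

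Of the donor supply genes 0 of 11 measured (of 15 listed) had an unadjusted limma p under 0.05 on either diet. Among all probe sets 12.7% had such a p with naproxen and 10.4% with NO-naproxen. The NO-naproxen arrays of Bpnt1, 1 of these 11, all lay above control (0.22 ± 0.16, adjusted p = 0.523). Ugdh, which makes UDP-glucuronic acid, differed by 0.24 ± 0.20 and 0.25 ± 0.20, Gclc, the catalytic subunit of the enzyme that limits glutathione synthesis, by -0.24 ± 0.21 and 0.02 ± 0.21, and Papss2, which makes PAPS, by -0.01 ± 0.18 and 0.21 ± 0.18. Of the other conjugating enzymes 1 of 4 measured had such a p on each diet: Glyat, which joins glycine to acyl-CoA esters, at 0.54 ± 0.22 and 0.47 ± 0.22. Of the hydrolases 1 of 8 measured did, the carboxylesterase Ces2c, at 0.55 ± 0.25 and 0.62 ± 0.25. The exporters of conjugates (4 of 6 measured) gave 0, with Abcc3 at 0.00 ± 0.29 and 0.11 ± 0.29.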

How the data were processed

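The values the authors deposited are probe set intensities of 12 arrays, on a linear scale as judged from their range. Affymetrix Expression Console 1.1.1 and the genome build rn4 are named in the submitters' processing notes, which state no role for either. For the summary of probes and the normalization, no method was given in the sources used here. The medians of the arrays lay between 89.8 and 118, and 5.87% to 11.1% of values per array were under 16. Here 16 was added before log2, which understates changes of dim probe sets. Symbols came from the platform annotation (13327 probe sets with 1 symbol, 620 with several, 5471 with none), and all 30 genes matched the RefSeq gene table by Entrez identifier with 0 symbols changed.

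One limma 3.58.1 fit in R 4.3.3 (lmFit and eBayes, 2-sided) took all 12 arrays and all probe sets, with the 3 diets as groups and Benjamini-Hochberg adjustment over 19418 probe sets. The step was tested on simulated data. Genes given array by array were those with the smallest unadjusted p under 0.05 in a comparison, up to 6 per direction, and the member of each class with the smallest p against control. That rule allows up to 3 further examples a class; the text goes past it and gives the difference of every gene, so that each is accounted for, and array values of some others, chosen after their values were seen. Whether probe sets of close relatives cross-hybridise was not tested. The genes, gene lists and alternatives were chosen with earlier results of these data known. Replicate numbers came from the sample titles, and the labels do not say that rats with the same number share a litter or a day. Alternatives were other added constants, normalizations, spread models and filters, the replicate block and each array left out. Some of them can change a p but not a log2 difference of these genes. These were the replicate block, the trended and robust spread, the fit on only the 2 groups compared and the mean of a symbol's probe sets. Leaving out an array of the diet not compared was another.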

Additional observations from a re-analysis of the deposited data

Results flagged for a closer look

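Each group of 4 arrays was checked for an array whose gap to the nearest of the others was over 0.829 of the group's range. Of 90 groups (30 genes in 3 diets) 6 had one, and chance alone marks about 1 in 20. Mgst2 was lowest in control replicate 2, at 10.58 against 11.05 to 11.10 in the other 3. Sult1b1 was lowest in naproxen replicate 3, at 11.52 against 11.83 to 11.87. Sult6b1 was highest in control replicate 3, at 7.22 against 6.11 to 6.20. Gstp3 was highest in naproxen replicate 1, at 11.52 against 10.96 to 11.05. The theta class genes Gstt1 and Gstt2 were both highest in control replicate 1, Gstt1 at 8.60 against 8.08 to 8.12 and Gstt2 at 11.08 against 10.76 to 10.80.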

How the results depend on the processing

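The precision rests on 4 arrays per group, and the dim genes Gstm3 and Ugt2b sit near background. No gene of the 30 was called at an adjusted p under 0.05 under any of the alternatives in any of the 3 comparisons. Of the class medians 431 kept within the spread between replicates and 1 moved beyond it: the SULT median with NO-naproxen was 0.10 with the interquartile range as a covariate (-0.03 in the fit on diets alone). The 431 include alternatives that cannot move a log2 difference. Median centring moved the median of all probe sets from -0.03 to 0.08 with naproxen and from 0.00 to 0.07 with NO-naproxen.

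The number of genes that met the series criterion with naproxen (1) was 2 with median centring and 0 with 64 added, without the dimmest 30% of probe sets (26 genes left, Gstm3 and Ugt2b removed) and at a fold of at least 2. Leaving out 1 array at a time gave 0 to 2, with 0 without naproxen replicate 1 and 2 (Gstm3 and Sult2a2) without control replicate 2. With NO-naproxen (1) it was 4 with array weights, where 30.6% of all probe sets had an unadjusted p under 0.05 (10.4% without weights), and 0 with 1 added, with 64 added, with only the 2 groups compared, without the 2 arrays of narrowest spread, without the dimmest 30% and at a fold of at least 2. Leaving out 1 array gave 0 to 3, with 0 without control replicate 3 or NO-naproxen replicate 1 or 2, and with Sult2a2 in place of Ugt2b without control replicate 2. With the interquartile range as a covariate the 1 gene was Gstm6l. Between the drugs (0) it was 0 to 1, with 1, Ugt2b, without NO-naproxen replicate 4. The causes were not tested.

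Of the genes named by the rule, the sign changed for Mgst2 and Sult2a2. Outside it, among others, Gstm7 with naproxen was -0.07 with quantile normalization (0.01 in the fit without it), and with the interquartile range as a covariate NO-naproxen gave 0.05 for Gstm7 (-0.10) and 0.0048 for Gstm1 (-0.12). The naproxen difference of Mgst2 was -0.033 without control replicate 2 and -0.0036 without naproxen replicate 4, with a range of -0.033 to 0.17 over the single arrays left out. Its NO-naproxen difference was 0.23 with the interquartile range as a covariate, 0.015 with median centring, 0.076 without the 2 arrays of narrowest spread and -0.21 to 0.17 over the single arrays left out, the lowest without NO-naproxen replicate 3 and the highest without replicate 1. The naproxen difference of Sult2a2 was -0.011 without those 2 arrays. Same-numbered arrays of different diets correlated at -0.38 to 0.48 in their deviations, and 4 of 24 best matches had the same number. The main fit used no pairing by number, and this check cannot show whether same-numbered rats shared a litter or a day. With the replicate number as a block the criterion count was 1 for each drug diet and 0 between them, and the genes at an unadjusted p under 0.05 numbered 3 with naproxen and 4 with NO-naproxen.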

Other observations

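The 12 probe sets of these families that list several gene entries each were not assigned to 1 gene. Among them is a probe set that repeats the symbol Sult1e1 for different Entrez identifiers. The log2 differences of the 12 from control had a median of 0.16 with naproxen and 0.22 with NO-naproxen. On each diet 8 of 12 were above 0, against 45.9% of all probe sets with naproxen and 50.1% with NO-naproxen. The probe set of the UGT1 family, whose annotation lists 8 symbols, measured 12.54 ± 0.11 in controls and differed by -0.07 ± 0.18 with naproxen and -0.02 ± 0.18 with NO-naproxen (95% interval -0.40 to 0.37). The 4 shared probe sets of the alpha class GSTs differed by 0.19 to 0.24 with naproxen and by -0.07 to 0.76 with NO-naproxen.

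One shared MGST probe set measured 8.68, 8.53, 7.93 and 8.51 in control replicates 1 to 4 and 8.80, 9.34, 8.83 and 9.23 with NO-naproxen. These groups did not overlap (3.35% of all probe sets did not), and the difference was 0.64 ± 0.20 (limma, adjusted p = 0.468). One shared SULT probe set was higher with NO-naproxen than with naproxen by 0.45 ± 0.19 (limma, adjusted p = 1). It was the 1 of the 12 with an unadjusted limma p under 0.05 between the drugs, against 1.92% of all probe sets.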
